A study of Mus musculus with 18 samples.

Results

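Schlafen genes are a family of the mouse, clustered on chromosome 11, whose messages were measured here by RNA-seq in mouse embryonic fibroblasts (MEFs), primary cells grown from embryos without head and viscera. The 8 genes described are Slfn1, Slfn2, Slfn3, Slfn4, Slfn5, Slfn8, Slfn9 and Slfn10-ps, found by symbol among 55401 Ensembl identifiers of the count table. The only other identifiers whose symbol begins with Slfn, Slfnl1 and Slfn14-ps, held 3 and 2 counts over all libraries. The list was drawn up with results of these libraries already known, so the levels and the loss comparisons below describe the genes and are not independent evidence about them.

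Schlafen genes were first described in the developing mouse thymus and were named for the growth arrest that some of them impose on T cells. The short forms (Slfn1 and Slfn2), the intermediate forms (Slfn3 and Slfn4) and the long forms (Slfn5, Slfn8, Slfn9 and Slfn10) share a core domain, and the long forms carry in addition a helicase-like part. Many of them are induced by type I interferon and several are abundant in myeloid and lymphoid cells. Slfn2 is needed for the quiescence of T cells and monocytes and protects transfer RNAs from cleavage, Slfn4 marks activated monocytes and macrophages, and Slfn10-ps is annotated as a pseudogene.

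All MEFs were of the C57BL/6 strain, and each of the 6 groups held 3 libraries. In the S6K1 series, wild-type (WT) MEFs carried an empty vector (EV) or constitutively active HRAS (RAS), and S6K1 knockout (KO) littermate MEFs carried RAS. In the S6K1/S6K2 series the same pair of WT groups was set beside double knockout (DKO) MEFs with RAS, which lack S6K1 and S6K2. By the study's methods, the WT controls of the DKO came from earlier stages of the breeding and were not littermates, and all cells were infected with retrovirus and selected with puromycin. S6K1 and S6K2, encoded by Rps6kb1 and Rps6kb2, are kinases downstream of mTORC1, and active RAS puts primary fibroblasts into senescence. Loss of the kinases in cells with EV was not analysed here.

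Libraries held between 8319445 and 14402442 counts. The targeted genes were lower where the labels said so, by exon counts that need not fall to 0 when a deletion spares part of the gene. Rps6kb1 was 61.5, 70.8 and 74.5 CPM (counts scaled to library size within each series) in the WT RAS libraries, in rising order, and 23.5, 31.3 and 36.9 CPM in the KO. In the S6K1/S6K2 series it was 75.4 to 83.6 CPM in WT RAS and 34.4 to 39.7 CPM in the DKO, and Rps6kb2 went from 24.01 to 28.9 CPM in WT RAS to 2.67 to 3.04 CPM in the DKO. All 12 fibroblast markers were above 3 counts in every library. Of 31 macrophage markers, 23 to 30 were above 3 counts in each library, and their summed level ranged from 104 to 5318 CPM. Of the 10 lymphoid markers only Lck passed 3 counts in any library, and Cd3d and Cd8a were at 0 in all 18. Endothelial markers (8 genes) summed to between 8.69 and 16.3 CPM.

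Lines stood apart by this macrophage level, and the libraries that share a number stood apart together. In the S6K1 series the summed level was 4794, 3775 and 1020 CPM in WT EV libraries 1, 2 and 3, it was 5318, 4780 and 1073 CPM in WT RAS, and it was 1247, 958 and 370 CPM in the KO. In the S6K1/S6K2 series it was 2153, 239 and 320 CPM in WT EV, 1436, 246 and 371 CPM in WT RAS, and 371, 104 and 136 CPM in the DKO. So the libraries numbered 3 were low in the first series and those numbered 1 were high in the second. Each KO or DKO library was below the WT RAS library of the same number, although the number does not pair DKO with WT lines. As groups they overlapped: KO library 1 (1247 CPM) was above WT RAS library 3 (1073 CPM). DKO library 1 (371 CPM) was likewise above WT RAS library 2 (246 CPM). Fewer macrophages and less macrophage message per cell cannot be told apart in bulk RNA.

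The 8 genes lie within 264 kb of chromosome 11 (GRCm38.p6, RefSeq positions), from Slfn5 at chr11:82951349-82964850 to Slfn3 at chr11:83191330-83215154. Between them come Slfn9 at chr11:82974316-82991830, Slfn8 at chr11:83002125-83020810, Slfn10-ps at chr11:83028123-83040533, Slfn2 at chr11:83065112-83070678, Slfn1 at chr11:83116820-83122670 and Slfn4 at chr11:83175172-83190216. The cluster ends 3.28 Mb before Rps6kb1 (chr11:86498869-86544885), the gene targeted in both the KO and the DKO, so the Schlafen genes and the targeted gene are linked. Position and genotype cannot be told apart in this design.

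Promoter sequences are shown because the genes were low together and because interferon acts through a short element near the start of its target genes. RefSeq windows (GRCm38.p6), each set around 1 annotated transcript start with most bases before it, were found for 7 of the 8 genes in 8 windows (Slfn8 has 2). The start used was the outer end of the gene's span for most of them, but for Slfn5 it was chr11:82952102, 753 bases inside the span given above, for Slfn4 it was 14 bases inside and for the other Slfn8 window 88 bases inside. The core of the interferon-stimulated response element, searched on both strands as GAAA, any 2 bases and GAAA, was in the windows of Slfn5, Slfn9 and Slfn8 and in 1131 of 32851 windows of all genes (3.44%). It was in 29 of the 73 windows of interferon response genes (39.7%). In each sequence here, read 5′ to 3′ along the gene, capitals mark that core or, in Slfn2, a run of 9 bases described next.
Slfn5 (chr11:82951852-82952151, plus strand): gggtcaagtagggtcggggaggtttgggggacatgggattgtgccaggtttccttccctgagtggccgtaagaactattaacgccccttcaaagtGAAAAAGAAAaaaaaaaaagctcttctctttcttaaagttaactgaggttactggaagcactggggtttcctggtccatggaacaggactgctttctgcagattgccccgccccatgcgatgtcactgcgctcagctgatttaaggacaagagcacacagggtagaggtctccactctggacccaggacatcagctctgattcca
Slfn9 (chr11:82991781-82992080, minus strand): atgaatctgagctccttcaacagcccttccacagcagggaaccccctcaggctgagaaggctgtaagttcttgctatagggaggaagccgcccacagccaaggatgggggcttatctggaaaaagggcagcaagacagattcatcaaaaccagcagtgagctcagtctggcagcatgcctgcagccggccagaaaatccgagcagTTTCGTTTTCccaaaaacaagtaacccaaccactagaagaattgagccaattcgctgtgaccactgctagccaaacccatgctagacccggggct
Slfn8 (chr11:83020761-83021060, minus strand): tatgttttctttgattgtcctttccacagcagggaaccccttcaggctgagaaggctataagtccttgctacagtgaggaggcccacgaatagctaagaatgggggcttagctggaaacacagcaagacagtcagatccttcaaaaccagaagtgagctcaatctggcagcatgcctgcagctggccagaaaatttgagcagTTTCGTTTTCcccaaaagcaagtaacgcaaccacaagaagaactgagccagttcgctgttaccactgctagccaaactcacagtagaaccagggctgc
Slfn2 (chr11:83064862-83065161, plus strand): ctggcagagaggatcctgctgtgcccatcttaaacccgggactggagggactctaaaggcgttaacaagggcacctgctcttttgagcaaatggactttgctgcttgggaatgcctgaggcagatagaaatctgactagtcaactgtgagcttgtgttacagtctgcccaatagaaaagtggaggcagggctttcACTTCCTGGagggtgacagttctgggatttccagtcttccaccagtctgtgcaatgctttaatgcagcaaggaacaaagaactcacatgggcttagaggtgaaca
Counted from the start used for each window, the core began 155 bases before it in Slfn5, 45 bases before it in Slfn9 and 48 bases before it in Slfn8. The matched letters were GAAAAAGAAA in Slfn5 and TTTCGTTTTC, the element read on the other strand, in both Slfn9 and Slfn8, whose windows also shared a run of 20 bases, tctggcagcatgcctgcagc. No window of Slfn1, Slfn2, Slfn3 or Slfn4 held the core. These 4 windows shared the 9 bases ACTTCCTGG, at 74, 55, 42 and 73 bases before the start, in that order. That run was chosen after the sequences were seen, and on either strand it was in 277 of all 32851 windows (0.843%). The gamma-activated site core (TTCNNNGAA, in 8.3% of all windows) and the PU.1 letters GAGGAAGT (3.2%) were in none of the 8 windows, and the AP-1 letters TGANTCA (7.81%) were in that of Slfn4 alone. Read on the other strand, the shared run ACTTCCTGG holds the PU.1 letters but for the first. Only an exact match to them was therefore absent from those 4 windows. These are matches of letters and not sites shown to be bound.

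Close copies limit how far single genes can be told apart with reads of 50 bases. Of all stretches of 50 bases in the exons, 97.6% occurred once in the genome for Slfn5, 99.4% for Slfn1 and 94.2% for Slfn2. The share was 83.7% for Slfn8, 83.5% for Slfn9 and 80.4% for Slfn10-ps, which share stretches with one another, and 87.9% for Slfn4 and 76.5% for Slfn3, which share stretches with each other and with Slfn1. Slfn2 shares some with Slfn4. Values of Slfn8, Slfn9 and Slfn10-ps are therefore uncertain by the reads that the 3 could exchange, while Slfn5 shared no stretch with another of the 8. These shares were counted in the NCBIM37 genome.

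Per length, Slfn2 had the highest level of the family in every library but 1, S6K1/S6K2 WT EV library 2, where it was 6.58 CPM per kb of exon against 10.4 for Slfn9. In S6K1 WT EV libraries it was 21.2 CPM per kb of exon on average, followed by Slfn9 (5.42), Slfn5 (3.43), Slfn8 (1.45), Slfn10-ps (1.22) and Slfn3 (0.316 CPM per kb). Library values of Slfn9 and Slfn5 overlapped, as did those of Slfn5 and Slfn8 and those of Slfn8 and Slfn10-ps, so only Slfn2 at the top and Slfn3 at the foot were set apart from their neighbors in that order. Slfn4 (0.0182 CPM per kb) and Slfn1 (0 counts) were at the limit of detection.

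Slfn2, the short form tied to quiescence, was measured best. It was 38.1, 46.9 and 20.9 CPM in S6K1 WT EV libraries 1, 2 and 3, and 61.1, 68.4 and 16.4 CPM in WT RAS. In the KO with RAS it was 8.08, 11.2 and 3.24 CPM. All 3 KO libraries were below every WT library of the series, and within each group library 3 was the lowest. Among the S6K1/S6K2 libraries Slfn2 was 13.1, 10.9 and 17.4 CPM in WT EV, 19.4, 5.71 and 7.68 CPM in WT RAS, and 1.88, 1.82 and 1.35 CPM in the DKO. Again all 3 DKO libraries lay below every WT library.

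Slfn5, the long form at the outer end of the cluster, varied widely between lines. It was 13.2, 26.3 and 6.04 CPM in S6K1 WT EV, 28.3, 31.03 and 3.85 CPM in WT RAS, and 2.09, 6.35 and 1.91 CPM in the KO. KO library 2 was above WT RAS library 3, so these groups overlapped. For the S6K1/S6K2 series it was 9.15, 1.85 and 3.32 CPM in WT EV, 4.85, 0.713 and 1.48 CPM in WT RAS, and 1.19, 0.506 and 0.45 CPM in the DKO, where library 1 was above WT RAS library 2.

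Slfn8, a long form found in immune cells, was close to the limit of detection after loss. It was 5.49, 8.71 and 3.66 CPM in S6K1 WT EV and 10.1, 16.2 and 2.73 CPM in WT RAS. In the KO it was 0.182, 0.536 and 0.166 CPM, from 2, 7 and 2 counts. Across the S6K1/S6K2 series it was 1.48, 5.91 and 4.45 CPM in WT EV and 3.67, 0.476 and 0.555 CPM in WT RAS, and no DKO library held a count, where 3 counts would have been 0.27 to 0.304 CPM. WT RAS libraries 2 and 3 of that series held only 4 and 6 counts, so the depth left little room below them.

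Slfn9, the neighbor of Slfn8 in the same orientation, was 17.1, 34.4 and 25.3 CPM in S6K1 WT EV and 18.9, 23.95 and 9.06 CPM in WT RAS. In the KO it was 1.63, 2.22 and 1.41 CPM, so the highest KO library was below the lowest WT library. Among the S6K1/S6K2 libraries it was 13.0, 49.3 and 29.4 CPM in WT EV, 13.7, 5.35 and 3.89 CPM in WT RAS, and 1.39, 1.82 and 2.97 CPM in the DKO. DKO libraries were again lower than each WT library, with a smaller gap than in the S6K1 series.

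Slfn10-ps was 4.17, 6.77 and 2.29 CPM in S6K1 WT EV, 7.67, 6.38 and 4.97 CPM in WT RAS, and 0.182, 0.918 and 0.416 CPM in the KO. For the S6K1/S6K2 series it was 1.31, 1.501 and 2.01 CPM in WT EV, 4.53, 2.02 and 1.76 CPM in WT RAS, and 0.099, 0.101 and 0.18 CPM in the DKO, from 1, 1 and 2 counts. KO and DKO libraries lay below all WT libraries of their series.

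The remaining 3 genes were scarce. Slfn3 held between 1 and 23 counts in a library, with 0.274 to 0.893 CPM in S6K1 WT EV, 0.802 to 1.79 CPM in WT RAS and 0.166 to 0.918 CPM in the KO, and these groups overlapped. Slfn4 had 34 of its 48 counts in S6K1 WT RAS library 2 and no more than 3 in any other library. Slfn1 was seen in 3 libraries, with 3 and 7 counts in S6K1 WT RAS libraries 1 and 2 and 1 count in KO library 2. With the exception of those counts, Slfn1 and Slfn4 were at or under 3 counts, and no fold change is given for them in the S6K1/S6K2 series.

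**Figure D1:**
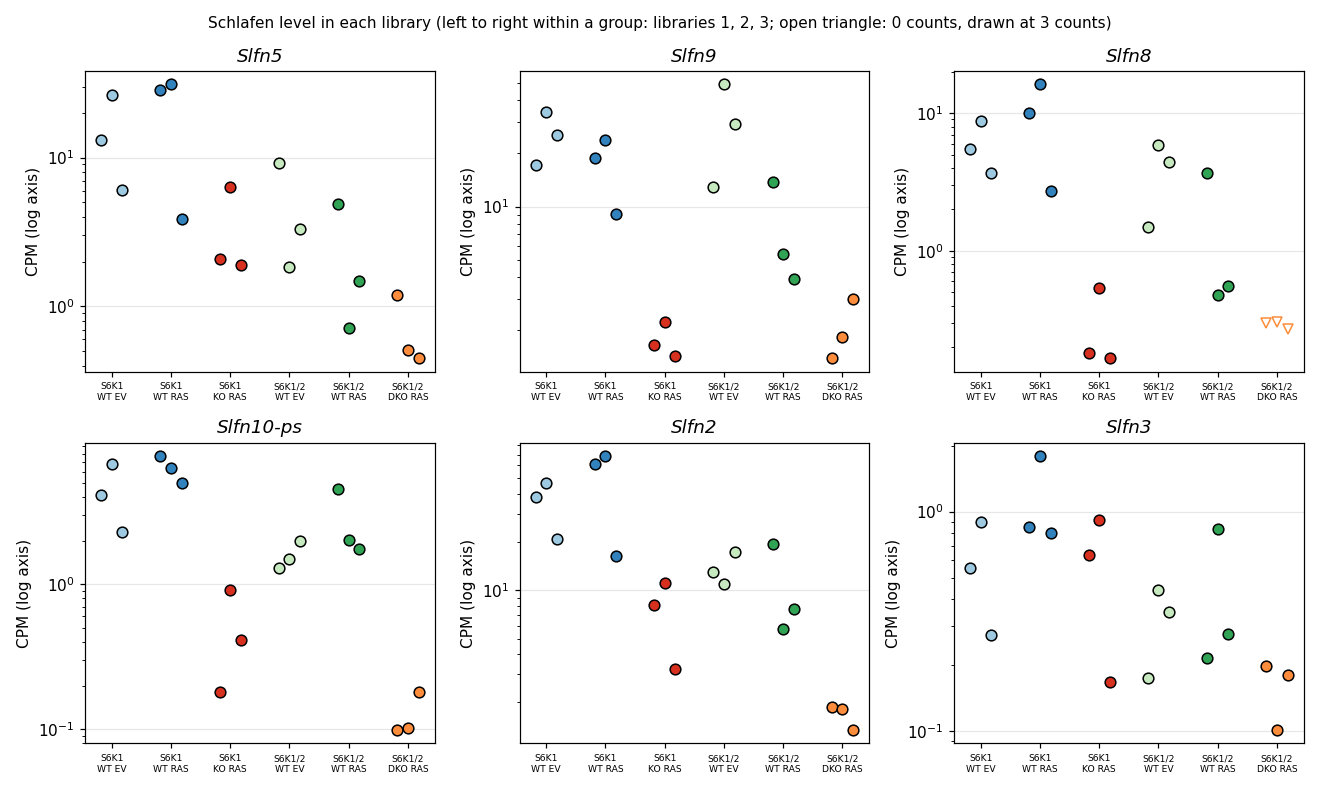
Level of 6 Schlafen genes in each of the 18 libraries, in CPM on a log axis, with 1 point per library and the libraries of a group in the order 1, 2, 3. KO and DKO points lie below all WT points of their series for Slfn9, Slfn8, Slfn10-ps and Slfn2, while Slfn5 and Slfn3 overlap, and Slfn8 has 0 counts in the 3 DKO libraries (open triangles, drawn at 3 counts).

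The first question was how Schlafen genes responded to RAS in WT MEFs. In the S6K1 series 6 of the 8 genes passed the filter on low counts, and 0 passed an adjusted p of 0.05 in edgeR's quasi-likelihood test, against 13.2% of all 14036 genes tested. At an unadjusted p under 0.05 the count was also 0 (26.4% of all genes), as it was with DESeq2 (17.6%) and with the replicate number as a block (36.2%). Log2 fold changes (RAS against EV) were 0.46 for Slfn2 (SE 0.547), 0.47 for Slfn5 (SE 0.75), 0.69 for Slfn8 (SE 0.571), 0.52 for Slfn10-ps (SE 0.447), 0.97 for Slfn3 (SE 0.606) and −0.56 for Slfn9 (SE 0.356). The lines did not move alike. Slfn2 was higher with RAS in lines 1 and 2, by 0.68 and 0.54 on the log2 scale, and lower in line 3 (−0.35). The interferon response list went with it, from 4.60, 5.03 and 4.21 in EV to 5.86, 5.99 and 3.88 in RAS, as the mean log2 CPM of its genes in libraries 1, 2 and 3.

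Across the S6K1/S6K2 series 5 of the 8 genes passed the filter and 1, Slfn9, fell with RAS (a log2 difference of −2.0 with SE 0.554, edgeR adjusted p = 0.0258), where 26.3% of all 13881 genes were called. At an unadjusted p under 0.05 it was again the 1 gene (39.8% of all genes). With the replicate number as a block (28.7% of all genes) Slfn9 was no longer called (edgeR adjusted p = 0.0545). Slfn5 was called there (−1.08 on the log2 scale, edgeR adjusted p = 0.0397). The block also joined DKO libraries to the WT libraries of the same number, which were not taken as paired. These 2 changes are therefore not a result of pairing EV and RAS lines alone. The call of Slfn9 was also lost without WT EV library 2 (adjusted p = 0.101), without WT RAS library 2 (0.0961) or without WT RAS library 3 (0.0883) in edgeR without the block, where 16.3%, 14.4% and 15.4% of all genes were called. DESeq2 on all libraries of the series did call Slfn9 (−1.985 on the log2 scale, DESeq2 adjusted p = 0.00173), where 4134 of 13881 genes were called. By line, Slfn9 differed between RAS and EV by 0.08, −3.19 and −2.91 on the log2 scale, and Slfn8 by 1.29, −3.48 and −2.90. The interferon list level over the same libraries went from 4.24, 4.70 and 4.58 in EV to 4.66, 2.78 and 2.72 in RAS, so lines 2 and 3, in which these genes were lower with RAS, were those in which the list was lower. Without the 3 libraries numbered 1, an alternative chosen after seeing the data, 3 genes were called (27.4% of all genes), all lower: Slfn9 (−3.10), Slfn8 (−3.29) and Slfn2 (−1.07). Slfn10-ps differed in the other direction (0.78 on the log2 scale, SE 0.428, edgeR adjusted p = 0.202). EV and RAS groups overlapped for each of the genes tested, in both series, whereas 15% and 15.9% of all genes were lower and higher with RAS without overlap in the S6K1 series, and 21.7% and 20.9% in the other.

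The difference in the RAS effect between the series was tested in a fit of all 18 libraries. It was −1.46 for Slfn9 (95% interval −2.95 to 0.03), −2.05 for Slfn8 (−4.35 to 0.24), −1.51 for Slfn5 (−3.94 to 0.93), −0.82 for Slfn2 (−2.39 to 0.75) and 0.25 for Slfn10-ps (−1.12 to 1.61) on the log2 scale. None of the 5 passed the threshold in edgeR, none had an unadjusted p under 0.05 (12.6% of all genes did), and DESeq2 called none (0.987% of all genes). Among all genes 0% were called in this contrast. Each of these intervals reaches past 1 log2 unit in at least 1 direction.

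The second question was how S6K1 loss changed the family under RAS. The log2 fold change of KO RAS against WT RAS was −4.95 for Slfn8 (SE 0.779), −3.59 for Slfn10-ps (SE 0.549), −3.29 for Slfn9 (SE 0.423), −2.69 for Slfn2 (SE 0.597), −2.59 for Slfn5 (SE 0.826) and −0.98 for Slfn3 (SE 0.613). Ratios of summed counts, with an exact interval that covers counting error alone, were 0.0314 for Slfn8 (0.0155 to 0.0568, from 11 counts against 360) and 0.0833 for Slfn10-ps (0.0493 to 0.133, from 19 against 234). For the scarce genes the ratio was 0.0513 for Slfn4 (0.00601 to 0.198, from 2 counts against 40) and 0.103 for Slfn1 (0.00237 to 0.722, from 1 against 10). Most of the Slfn4 counts came from 1 library.

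In edgeR 0 of the 6 genes were called in this comparison, where 1 of 14036 genes was (0.00712%), and 5 of the 6 had an unadjusted p under 0.05 (6.86% of all genes). DESeq2 called 4 (0.449% of all genes). By the study's methods WT and KO MEFs were littermates, but the labels do not tie same-numbered WT and KO libraries to the same mother. With the replicate number as a block, 5 of 6 were called, all lower, where 4.15% of all genes were called and 3.61% were called lower. These were Slfn2 (log2 fold change −2.64, SE 0.192), Slfn8 (−4.91, SE 0.383), Slfn9 (−3.28, SE 0.319), Slfn10-ps (−3.63, SE 0.396) and Slfn5 (−2.52, SE 0.361). Slfn3 was not called. Without WT RAS library 3 alone 2 genes were called (0.154% of all genes), and without all libraries numbered 3, again chosen after seeing the data, 4 were (2.69%). KO and WT RAS libraries did not overlap for 4 of the 6 genes, and 4.17% of all genes were lower without overlap. The genes were listed with this contrast known, so these counts describe them and nothing is read from their excess over the background.

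Loss of both kinases was compared in the same way. The log2 fold change of DKO RAS against WT RAS was −2.69 for Slfn2 (SE 0.466), −1.87 for Slfn9 (SE 0.613) and −1.71 for Slfn5 (SE 0.835). For Slfn10-ps the ratio of summed counts was 0.047 (exact interval 0.0125 to 0.125, from 4 counts against 78). Slfn8 had 0 counts in the DKO against 44 in WT RAS, which makes it at least 16-fold lower against a floor of 3 counts over the group. Of the 44 counts 34 were in WT RAS library 1, and without it the bound was 5.39-fold. In edgeR 0 of the 5 genes tested were called, where 0.0216% of all genes were, 4 of 5 had an unadjusted p under 0.05 (1.29% of all genes), and DESeq2 called 3 (0.072%). With the replicate number as a block 0 were called (0.0576% of all genes). For 4 of the 5 genes DKO and WT RAS libraries did not overlap (3.05% of all genes were lower without overlap). Slfn3, with 5 counts in the DKO and 12 in WT RAS, did not pass the filter.

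The median log2 fold change of the genes tested was −2.99 after S6K1 loss and −2.69 after loss of both kinases, the latter also with Slfn8 at its bound, where the medians of all genes were 0.03 and −0.00. In rank from the lowest of 14036 genes after S6K1 loss, Slfn8 was number 2, Slfn10-ps number 7, Slfn9 number 16, Slfn2 number 53 and Slfn5 number 73. The difference in the loss effect between the series was 1.45 for Slfn9 (95% interval −0.26 to 3.17), 0.93 for Slfn5 (−1.95 to 3.81), 0.04 for Slfn2 (−2.04 to 2.12) and −0.69 for Slfn10-ps (−2.50 to 1.12) on the log2 scale. Slfn8 was tested as well, but with no DKO count its fitted difference is not given. edgeR called none of the 5, none had an unadjusted p under 0.05 (1.23% of all genes did) and DESeq2 called none, with 0.0069% of all genes called, and each of the 4 intervals reaches past 1 log2 unit.

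**Figure D2:**
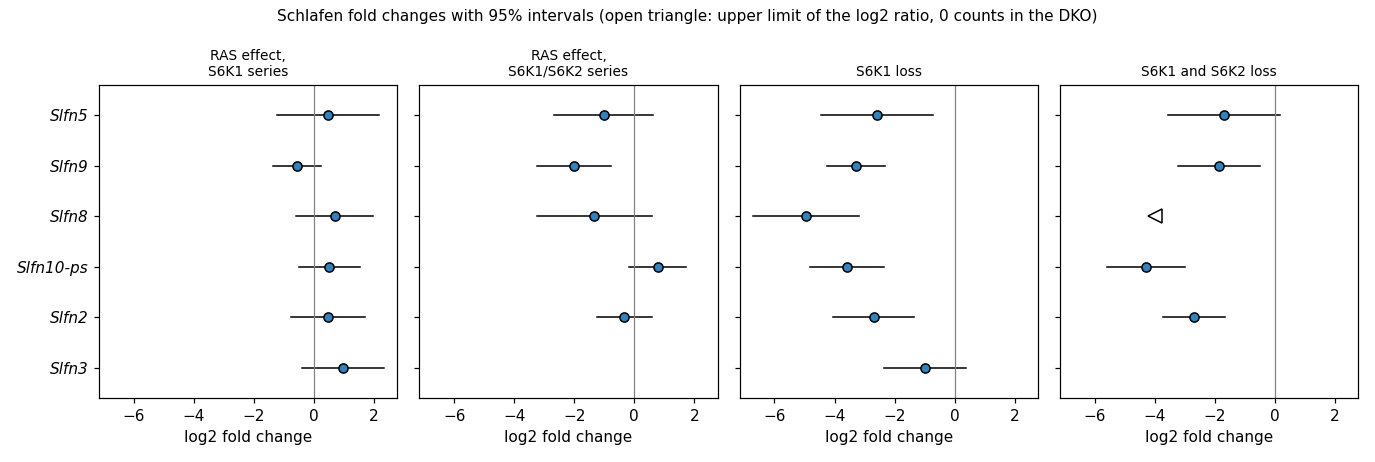
Log2 fold change of 6 Schlafen genes in the 4 comparisons, with points for edgeR estimates and lines for their 95% intervals. With RAS the intervals span 0 in all cases but Slfn9 in the S6K1/S6K2 series, while after loss they lie below 0 except for Slfn3 in the S6K1 series and Slfn5 in the S6K1/S6K2 series, and Slfn8 in the DKO is drawn as an upper limit at −4.0.

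Interferon response genes were lower in the same libraries. Of 76 listed genes, 73 were tested after S6K1 loss, and 73 of 73 had a log2 fold change below 0, with a median of −1.71 and a range from −3.46 to −0.30. None was called in edgeR without the block, 62 had an unadjusted p under 0.05, and with the block 61 were called, all lower. After loss of both kinases 69 of 70 were below 0 (median −1.11), and 0 were called with or without the block. Named genes of the list after S6K1 loss included Oasl2, an antiviral synthetase-like protein (log2 fold change −2.66, SE 0.90), Mx1, an antiviral GTPase (−2.56, SE 0.95), Isg15, a ubiquitin-like modifier (−2.24, SE 0.904), Ifit1, which binds viral RNA (−2.16, SE 0.801), and Irf7, a transcription factor of the response (−2.16, SE 0.73). No interferon gene of the list was lower than Slfn8 or Slfn10-ps, 2 of 73 were lower than Slfn9, 8 lower than Slfn2, 10 lower than Slfn5 and 57 lower than Slfn3. After loss of both kinases 0 of 70 were lower than Slfn10-ps, 3 lower than Slfn2, 17 lower than Slfn9 and 22 lower than Slfn5.

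Genes upstream of these targets were listed by role. Of 12 interferon ligands 8 had an identifier in the table, and 0 of these passed the filter on low counts in any comparison. Interferon receptors (5 genes) had a median log2 fold change of 0.08 after S6K1 loss and 0.02 after loss of both kinases, and none was called, with the block or without it. Among 16 signalling genes the median was −0.74 after S6K1 loss (from −2.21 to 0.09) and −0.38 after loss of both kinases (from −2.51 to 0.08). After S6K1 loss 9 were called lower with the block, among them Irf9 (−0.78, SE 0.166, adjusted p = 0.0288 in edgeR) and Stat2 (−1.25, SE 0.242, adjusted p = 0.0179 in edgeR). Irf3, which acts before interferon is made, was at −0.02 (SE 0.101) without the block.

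Macrophage markers were lower as well. All 30 tested had a log2 fold change below 0 after S6K1 loss (median −2.21, from −3.04 to −1.25), 0 were called without the block, 29 had an unadjusted p under 0.05 and 28 were called with it, all lower. After loss of both kinases all 28 tested were below 0 (median −1.89), 0 were called without the block and 4 with it. Csf1r, the receptor for macrophage growth factor, was at −2.21 (SE 0.72) after S6K1 loss, Adgre1 (F4/80) at −2.15 (SE 0.706), Lyz2 (lysozyme) at −1.998 (SE 0.731), Tyrobp at −2.06 (SE 0.833), Cd68 at −1.84 (SE 0.628) and C1qa at −2.50 (SE 0.861). Fibroblast markers (12 genes) had a median of −0.19 and none was called.

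Levels relative to these lists were set out by library. Subtracting the mean log2 CPM of the interferon list, Slfn8 was at −2.30 ± 0.288 in S6K1 WT RAS and −5.42 ± 0.255 in the KO (mean ± SD, n = 3, from 2, 7 and 2 KO counts), and Slfn9 was at −1.24 ± 0.485 and −2.87 ± 0.538. Slfn10-ps was at −2.59 ± 0.923 and −4.80 ± 0.83, Slfn2 at 0.11 ± 0.042 and −0.95 ± 0.369, and Slfn5 at −1.33 ± 0.509 and −2.11 ± 0.296. KO libraries lay below WT RAS libraries without overlap for these 5 of the 6 genes on this relative scale, as did 0.256% of all genes, although for Slfn5 the highest KO value (−1.94) was next to the lowest WT value (−1.92). Among the S6K1/S6K2 libraries Slfn2 was at −0.13 ± 0.321 in WT RAS and −1.69 ± 0.59 in the DKO, Slfn10-ps at −2.02 ± 0.391 and −5.01 ± 0.035, and Slfn9 at −0.66 ± 0.276 and −1.46 ± 0.274. The DKO value of Slfn10-ps came from 1, 1 and 2 counts, under the floor of 3, so its small SD is no measure of precision. With Slfn8, which had no DKO count, 4 of 5 genes did not overlap, against 0.0792% of all genes. Slfn5 overlapped, at −2.54 ± 0.545 and −2.99 ± 0.945. With no kinase lost, 2 of 6 genes were also lower on this scale in S6K1 WT RAS than in WT EV, without overlap. They were Slfn2 (0.45 ± 0.245 in EV) and Slfn9 (0.01 ± 0.484 in EV). For RAS in the S6K1/S6K2 series it was 0 of 5. The share of all genes is not given for the RAS comparisons, so nothing is read from these 2 counts.

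Relative to the log2 sum of the macrophage list, fewer genes stood apart. Slfn8 was at −8.61 ± 0.418 in S6K1 WT RAS and −11.3 ± 0.966 in the KO, and Slfn10-ps at −8.90 ± 1.01 and −10.7 ± 1.51. These 2 did not overlap in either series (0.221% of all genes were lower without overlap after S6K1 loss, and 0.072% after loss of both). In the DKO, however, Slfn8 had 0 counts, so its place there was set by the prior count of 0.5 and its overlap cannot be judged. Slfn10-ps rested there on 1, 1 and 2 counts. Slfn2 was at −6.20 ± 0.215 and −6.83 ± 0.422, Slfn9 at −7.55 ± 0.63 and −8.75 ± 0.773, and Slfn5 at −7.64 ± 0.428 and −7.99 ± 1.05, with overlap for all 3.

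**Figure D3:**
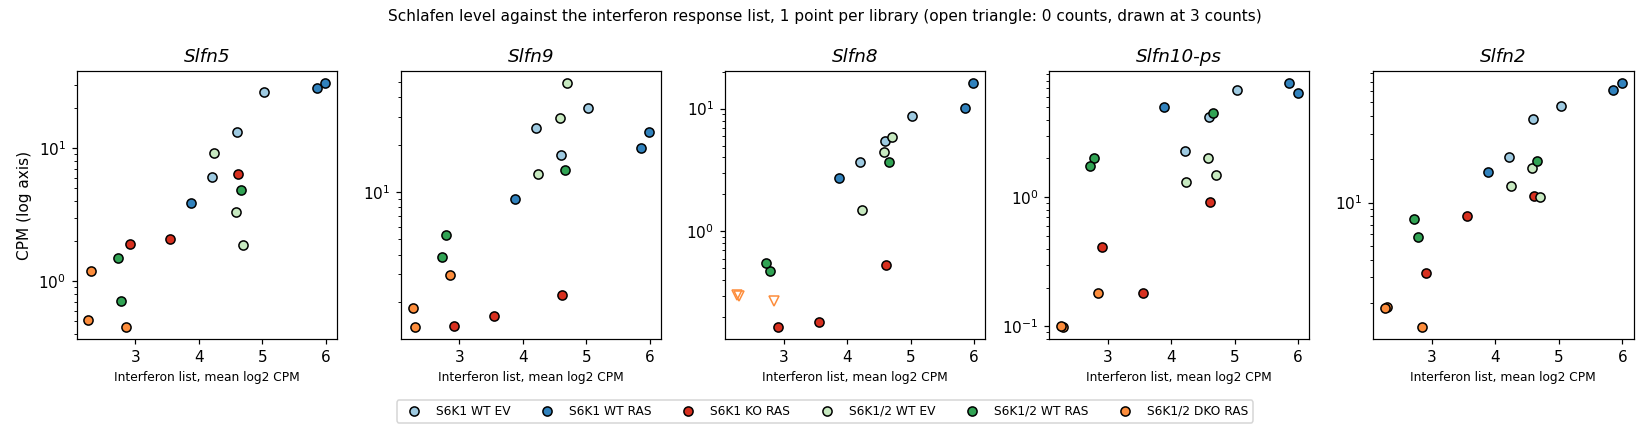
Level of 5 Schlafen genes (CPM, log axis) against the mean log2 CPM of the interferon response list, with 1 point per library and a color per group. KO library 2 (red, list level 4.61) has Slfn8, Slfn9 and Slfn10-ps below the WT libraries at a like list level. Its Slfn5 and Slfn2 lie among those of the S6K1/S6K2 series, which was scaled apart, but below S6K1 WT EV library 1 (list level 4.60). The WT RAS libraries at a list level of 2.72 and 2.78 (dark green) have low Slfn5, Slfn9 and Slfn8 but Slfn10-ps at 1.76 and 2.02 CPM, within the range of the WT EV libraries.

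**Figure D4:**
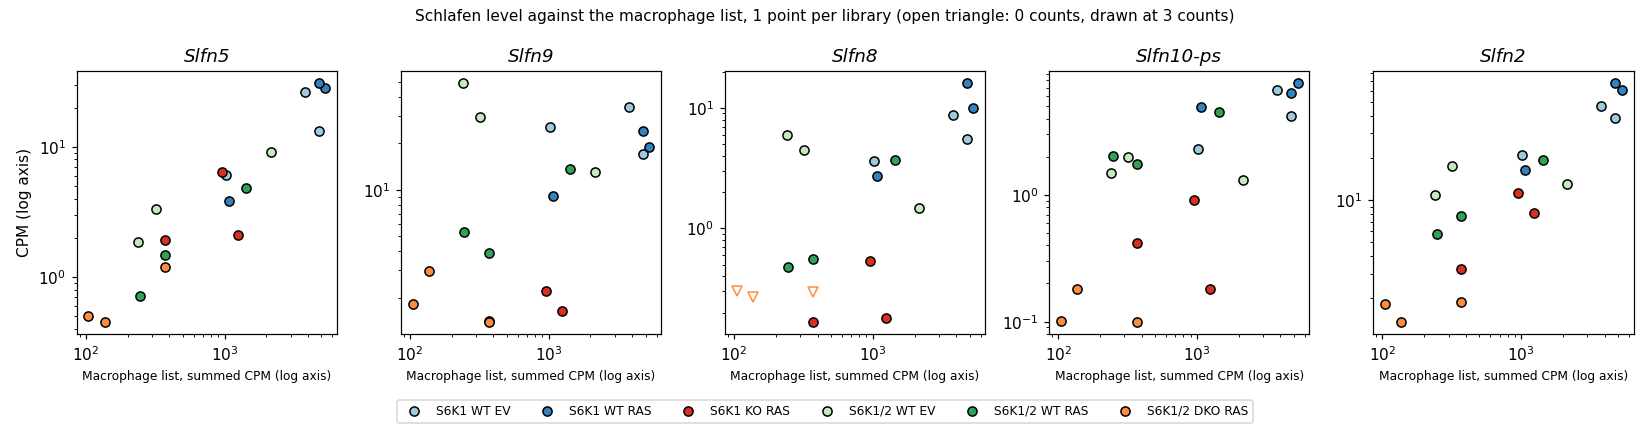
Level of the same 5 genes (CPM, log axis) against the summed CPM of the macrophage list (log axis), with 1 point per library. The S6K1/S6K2 WT EV libraries 2 and 3 (light green, 239 and 320 CPM of macrophage message) have Slfn9 at 49.3 and 29.4 CPM, the former above every S6K1 WT library and the latter below WT EV library 2 (34.4 CPM) alone.

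Each KO or DKO library was also set beside the WT library of its series nearest in list level, and the closest of these pairs are given here. They were chosen after the values were seen and carry no test. KO library 2 had an interferon list level of 4.61, next to 4.60 in S6K1 WT EV library 1. Slfn5 was 6.35 CPM in the former and 13.2 CPM in the latter, Slfn2 was 11.2 and 38.1 CPM, Slfn9 was 2.22 and 17.1 CPM, Slfn8 was 0.536 and 5.49 CPM, and Slfn10-ps was 0.918 and 4.17 CPM. DKO library 3 (list level 2.85) and WT RAS library 2 (2.78) held 1.35 and 5.71 CPM of Slfn2, 2.97 and 5.35 CPM of Slfn9, 0.45 and 0.713 CPM of Slfn5, and 0.18 and 2.02 CPM of Slfn10-ps. The WT library was the higher for each gene in both pairs.

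For macrophage message, KO library 2 (958 CPM) was nearest to S6K1 WT EV library 3 (1020 CPM). Here Slfn5 was slightly higher in the KO, at 6.35 against 6.04 CPM, whereas Slfn2 was 11.2 and 20.9 CPM, Slfn9 was 2.22 and 25.3 CPM, Slfn8 was 0.536 and 3.66 CPM, and Slfn10-ps was 0.918 and 2.29 CPM. KO library 1 (1247 CPM) and WT RAS library 3 (1073 CPM) held 8.08 and 16.4 CPM of Slfn2, 2.09 and 3.85 CPM of Slfn5, 1.63 and 9.06 CPM of Slfn9, 0.182 and 2.73 CPM of Slfn8, and 0.182 and 4.97 CPM of Slfn10-ps. DKO library 1 and WT RAS library 3 were alike at 371 CPM, and held 1.88 and 7.68 CPM of Slfn2, 1.39 and 3.89 CPM of Slfn9, 1.19 and 1.48 CPM of Slfn5 and 0.099 and 1.76 CPM of Slfn10-ps. Slfn5 was the 1 gene that was not lower in every KO or DKO library of these pairs.

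With the interferon list level as a covariate in the fit, the log2 fold change after S6K1 loss was −3.09 for Slfn8 (SE 0.379), −2.92 for Slfn10-ps (SE 0.547), −2.36 for Slfn9 (SE 0.336), −1.05 for Slfn2 (SE 0.266) and −0.15 for Slfn5 (SE 0.383). With the macrophage level in its place, these were −3.39 (SE 0.693), −2.91 (SE 0.565), −2.75 (SE 0.499), −1.15 (SE 0.349) and −0.36 (SE 0.703), in the same order. After loss of both kinases Slfn2 was −1.88 (SE 0.39) with the interferon level and −2.20 (SE 0.493) with the macrophage level, Slfn9 was −0.78 (SE 0.469) and −2.12 (SE 0.795), and Slfn5 was −0.78 (SE 1.03) and −0.33 (SE 0.419). None of these members was called in any of the 4 fits. Each covariate moves with the genotype, and the list levels and the genotype cannot be told apart fully in 9 libraries. Slfn3 was at −0.01 with either covariate in the S6K1 series, Slfn5 was within 1 SE of 0, and Slfn8, Slfn9 and Slfn10-ps were each more than 2 log2 units lower there. Among the S6K1/S6K2 libraries Slfn9 was within 2 SE of 0 with the interferon covariate.

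The third question was whether other genes near Rps6kb1 were lower too. The median log2 fold change after S6K1 loss was −0.06 over 21 genes tested within 1 Mb of its start, −0.03 over 43 genes at 1 to 3 Mb, −0.13 over 24 genes at 3 to 5 Mb without the Schlafen genes, and 0.00 over 108 genes at 5 to 10 Mb, against 0.03 over all genes. With the block, 5 of the 21 genes within 1 Mb were called (2 lower) and 9 of the 43 at 1 to 3 Mb (8 lower), where 4.15% of all genes were. Of 35 genes between the cluster and Rps6kb1, 10 were called and 8 of them were lower. After loss of both kinases the medians were −0.01, −0.03, −0.10 and −0.05, and with the block 0 of 20 and 2 of 39 genes were called within 1 Mb and at 1 to 3 Mb. Within 0.5 Mb of the cluster 18 other genes were tested after S6K1 loss, with a median of −0.22, and 7 were called lower with the block. The 7 were Ccl3 (−3.37, SE 0.824), Ccl4 (−3.09, SE 0.908), Ccl5 (−1.48, SE 0.682), Ccl6 (−2.51, SE 0.796) and Ccl9 (−2.54, SE 0.685), which are chemokines made by macrophages among other cells, with Gm11428 (−3.89, SE 0.919) and AI662270 (−2.44, SE 1.19). These windows overlap: the same 7, with the transcript 4632419I22Rik, made up the 8 lower genes between the cluster and Rps6kb1. Of the 8 lower genes at 1 to 3 Mb, 6 were among the 7. Flanking genes of general function on each side were close to 0, at 0.17 (SE 0.161) for Nle1, a ribosome assembly factor next to Slfn5, and at −0.05 (SE 0.118) for Ap2b1, an endocytic adaptor.

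Genes within 1 Mb of Rps6kb1 differed in either direction. Dhx40, a helicase gene whose start is 0.27 Mb from that of Rps6kb1, fell after S6K1 loss (−1.08 on the log2 scale, SE 0.0979, edgeR adjusted p = 0.0168) and was the 1 gene called there without the block. For the S6K1/S6K2 series it was at −1.02 (SE 0.16, adjusted p = 0.206 in edgeR). Called higher after S6K1 loss with the block were Tbx4 (1.57 without the block, SE 0.33) and Tbx2 (0.71, SE 0.288), which encode developmental transcription factors, and Rnft1 (0.38, SE 0.103), all on the side of the cluster. After loss of both kinases these were at −0.28 (SE 0.307), 0.80 (SE 0.229) and 0.20 (SE 0.117), and none was called. The transcript 4632419I22Rik, 0.297 Mb on the side of the cluster, was 71.4 to 75.2 CPM in S6K1 WT RAS and 44.5 to 52.6 CPM in the KO, and 72.4 to 78.3 CPM in S6K1/S6K2 WT RAS and 43.5 to 49.7 CPM in the DKO. Gm15698, 2.47 Mb on the other side, had 32 counts in S6K1 WT RAS and 0 in the KO, and 29 counts in S6K1/S6K2 WT RAS and 0 in the DKO, at least 10.4-fold and 10.5-fold lower against 3 counts over the group. Without the WT RAS library that held most of these counts (24 of 32 and 17 of 29, library 3 in both series), the bounds were 3.91-fold and 7.03-fold. These genes, other than Dhx40, were named after their values were seen.

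Position was also counted from the other direction. After subtracting the interferon list level, 36 of 14036 genes were lower in every S6K1 KO library than in every WT RAS library. Of these, 11 lay on chromosome 11, which holds 7.65% of the genes tested, and 5 of the 11 were Schlafen genes. The other 6 were Ccl3, Ccl6, Ccl9 and Gm11428 beside the cluster, and Ikzf1 and Cd300ld farther off. The 5 Schlafen genes were listed with results of these libraries known, so the 11 cannot be set against the share of 7.65%. The macrophage level, also lower in the KO, was not subtracted here. Across the S6K1/S6K2 series 11 of 13881 genes passed the same rule, 6 of them on chromosome 11, of which 4 were Schlafen genes and the others were Ccl6 and Gm15698. Both limits hold for this series too.

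**Figure D5:**
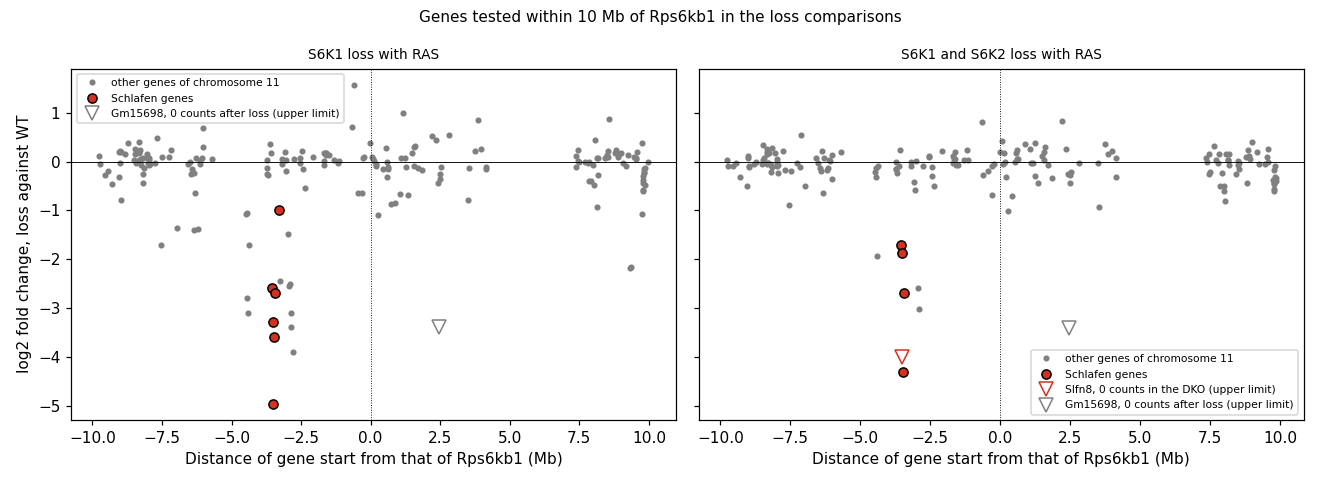
Log2 fold change of the genes tested within 10 Mb of Rps6kb1 after loss of S6K1 (left) and of both kinases (right), against the distance of each gene's start from that of Rps6kb1 in Mb. Most genes lie near 0 and the Schlafen genes (red) lie between −0.98 and −4.95 on the left, with chemokine genes beside them, while genes with 0 counts after loss are drawn as open triangles at their upper limits.

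Genes with the most similar pattern were sought over the 18 libraries, after removal of each series' mean, among 9830 genes with a mean of at least 100 counts. Slfn2 and Slfn9 were the Schlafen genes that reached this level. The 5 genes closest to Slfn2 were Trim30a (Pearson r 0.924), Trim12c (0.896), Oasl2 (0.895), Trim12a (0.892) and Tlr2 (0.889), of which Trim30a and Oasl2 were on the interferon list. Those closest to Slfn9 were Zranb3 (0.941), Trim12a (0.937), Arrb1 (0.933), 4632419I22Rik (0.93) and Trim12c (0.924), none of which was on the interferon or macrophage list. Of these genes only 4632419I22Rik lies on chromosome 11. The correlations are descriptions over libraries that share lines and groups.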

How the data were processed

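Poly(A) RNA of 18 MEF libraries was sequenced by the study as stranded single-end reads. The deposited table holds raw counts per Ensembl gene for 55401 identifiers, made by the authors. The study's methods name TopHat, the mm9 build and HTSeq, while the submitters' processing notes name CASAVA, STAR 2.7.1a, DESeq2 1.28.1 and mm10, so the build behind the counts is uncertain. Symbols were taken from an identifier table (32589 identifiers, holding 99.14% of counts), and RefSeq positions and promoters of GRCm38.p6 were matched by symbol.

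Counts were tested in edgeR 4.0.16 (R 4.3.3) by the quasi-likelihood method, with 1 fit per series of 9 libraries, a filter (filterByExpr, minimum count 10), TMM scaling and Benjamini-Hochberg adjustment over all genes tested (threshold 0.05, two-sided). Differences between series were contrasts in 1 fit of all 18 libraries. The script was tested on simulated data. Replicates are lines from separate embryos. CPM used effective library sizes, and log2 CPM a prior count of 0.5. The floor was 3 counts. Intervals are 95% (Clopper-Pearson, conditional on the 2 sums) and, like floors, cover counting error only.

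The interferon list level is the mean log2 CPM of the 70 list genes in both fits, and the macrophage level the summed CPM of 31 markers. The Schlafen genes, the lists, and the named-gene rule (every Schlafen gene, the targeted genes with Dhx40, fixed genes of each list, and the 5 genes most correlated with each Schlafen gene of mean 100 counts or more) were chosen with earlier results of these data known. Deviations from group means of same-numbered libraries correlated at 0.41 to 0.645 (RAS, S6K1 series), 0.286 to 0.357 (RAS, S6K1/S6K2 series) and 0.367 to 0.66 (S6K1 loss), and S6K1 WT and KO were littermates, so these were taken as paired. The main fits, with their SEs and intervals, held the group alone and left this pairing out. It entered only through the replicate block, an alternative that covered all 9 libraries of a series, the DKO included. Labels do not say that S6K1 WT and KO libraries of the same number share a mother. Alternatives were DESeq2 1.42.0, other scalings and filters, the block, other sets of libraries, leaving out each library, and list levels as covariates. Some genes are not reported here.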

Additional observations from a re-analysis of the deposited data

How the results depend on the processing

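Of 533 recomputed fold changes of single Schlafen genes, 478 kept their direction and side of the threshold, 35 passed it newly, 6 lost it and 14 changed sign. With the interferon list level as a covariate the RAS effect in the S6K1 series turned to −0.35 for Slfn2, −0.75 for Slfn5 and −0.28 for Slfn8, and in the S6K1/S6K2 series to 0.24 for Slfn2; none of these was called. Over fits that left out 1 library, the difference in the RAS effect of Slfn10-ps ran from −0.29 to 0.56, and the difference in the loss effect from −0.33 to 0.73 for Slfn2 and from −1.06 to 0.0573 for Slfn10-ps, without a call. The number of Schlafen genes called changed as follows. For S6K1 loss (0 called) it was 5 with the replicate block, 4 with DESeq2, 5 without a filter, 1 in a fit of all 18 libraries, 4 without all libraries numbered 3, and 0 to 2 without 1 library. For loss of both kinases (0 called) it was 3 with DESeq2, 3 without a filter, 1 with all 18 libraries and 0 with the replicate block; there same-numbered libraries correlated at 0.28, 0.431 and −0.033 and were not taken as paired. For the RAS effect in the S6K1 series it was 1 without a filter (Slfn4), where 2043 of 27614 genes were called. With the interferon covariate it was 1 there (Slfn9, lower), where 1675 of 14036 genes were. In the S6K1/S6K2 series (1 called) it was 0 in a fit of the 6 libraries, 0 with the interferon covariate and 2 with the macrophage covariate. It was 3 without all libraries numbered 1 (27.4% of all genes), and 0 to 3 without 1 library. Nothing is read from counts that stand without a share of all genes. Over all genes, S6K1 loss gave 1 call, against 583 with the block, 63 with DESeq2 and 108 without a filter, and loss of both gave 3, against 8, 10 and 11. The cause of these changes was not tested. Fits with 3 libraries a group, genes at a few counts, and reads shared by close copies limit Slfn8, Slfn10-ps, Slfn1, Slfn3 and Slfn4 most.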
